A study of Homo sapiens with 5 samples.

Results

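Cancer-testis antigen genes were followed through 5 RNA sequencing libraries of the human prostate cancer line C4-2B. The 9 members, of 58812 gene IDs in the count table, are SAGE1, CT45A10, CT45A1, CT45A3, MAGEC1, MAGEC2, MAGEA3, MAGEA6 and MAGEA12. They were chosen by their read counts in these same libraries, as genes that looked on in some and off in others, with family members beside them, so their own levels are given as a description with no test. C4-2B is a castration-resistant line of metastatic origin. Its parental cells (2 libraries) were set against 2 clones that carry the K13A mutation of HOXB13, a homeobox factor of the prostate lineage: clone C4K13A (2 libraries) and clone C5K13A (1 library). All were grown in the same C4-2B medium. Each mutant line is 1 clone and C5K13A has 1 library, so an effect of the mutation cannot be told apart from a property of a clone. The labels name no separate cultures behind the replicate libraries. The p-values then reflect just the spread of these libraries, which may be technical.

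Cancer-testis antigens are made in male germ cells and, in adults, in few other places apart from tumours. Many lie in clusters of near-identical copies on chromosome X, and their promoters are held silent in somatic cells by DNA methylation and the repressive chromatin that goes with it. Once such a promoter is open it tends to stay open through cell division, which is why levels of these genes can mark a lineage of cells. MAGE proteins bind RING-type ubiquitin ligases through a shared homology domain, and MAGEA3 and MAGEA6 pair with TRIM28.

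The promoters show how the members are arranged, and CpG pairs, the sites of DNA methylation, are in capitals in the sequences here. All are read 5′ to 3′ along the gene's own strand and are credited to RefSeq on GRCh38.p14, with stretches that GENCODE v29 marks as exon left out. SAGE1 and CT45A10 are transcribed away from each other. In GENCODE their starts are 119 bases apart, and in RefSeq an alternative pair of starts is 272 bases apart, so that the windows of 250 bases before these starts share 229 bases. SAGE1 is shown from X:135893466-135893715 (plus strand) and CT45A10 from the gap between the GENCODE starts, X:135889087-135889146 (minus strand). The SAGE1 stretch precedes the RefSeq start at X:135893716. That start lies inside the GENCODE gene used for names and coordinates here, downstream of its GENCODE start at X:135889205. The SAGE1 window is thus not the stretch before the GENCODE start, and which start was in use was not tested. The matching stretch of CT45A1, X:135713389-135713452 (plus strand), is shown because these windows are near copies, with 92.9% identity over 250 bases.
SAGE1: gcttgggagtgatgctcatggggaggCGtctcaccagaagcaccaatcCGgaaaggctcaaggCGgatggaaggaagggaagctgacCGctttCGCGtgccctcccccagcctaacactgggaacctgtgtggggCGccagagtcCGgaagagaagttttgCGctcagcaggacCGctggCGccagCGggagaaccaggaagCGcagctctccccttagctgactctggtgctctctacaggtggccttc
CT45A10: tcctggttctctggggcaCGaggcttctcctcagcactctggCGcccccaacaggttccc
CT45A1: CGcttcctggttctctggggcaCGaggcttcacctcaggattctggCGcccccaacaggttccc

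MAGEC1 (X:141903644-141903893, plus strand) and MAGEC2 (X:142205291-142205540, minus strand) are shown as relatives whose levels differed between libraries in different ways. Their windows are 55.6% identical.
MAGEC1: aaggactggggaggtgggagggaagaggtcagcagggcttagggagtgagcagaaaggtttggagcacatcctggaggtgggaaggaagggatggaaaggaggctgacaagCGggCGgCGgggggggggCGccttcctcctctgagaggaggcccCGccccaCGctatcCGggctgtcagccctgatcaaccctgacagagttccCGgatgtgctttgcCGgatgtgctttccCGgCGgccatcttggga
MAGEC2: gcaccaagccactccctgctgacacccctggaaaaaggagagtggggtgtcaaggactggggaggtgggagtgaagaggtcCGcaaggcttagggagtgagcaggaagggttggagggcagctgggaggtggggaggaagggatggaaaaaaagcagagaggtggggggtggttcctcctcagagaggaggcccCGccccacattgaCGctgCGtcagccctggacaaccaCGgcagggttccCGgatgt

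MAGEA3 and MAGEA6 are inverted copies with starts 70995 bases apart, and their windows of 250 bases are 100% identical. The stretch is therefore given once, from X:152698544-152698751 (plus strand).
MAGEA3: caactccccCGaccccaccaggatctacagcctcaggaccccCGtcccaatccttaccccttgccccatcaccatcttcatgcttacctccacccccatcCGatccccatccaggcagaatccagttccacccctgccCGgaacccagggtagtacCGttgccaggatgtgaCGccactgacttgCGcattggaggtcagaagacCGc

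The windows of 250 bases held 15 CpG pairs in MAGEA3 and MAGEA6, 13 in SAGE1, 16 in the upstream window of CT45A10 that overlaps it, 11 in MAGEC1, 7 in CT45A1 and in the second CT45A10 window, 6 in MAGEC2, and 5 and 13 in the pair of windows of MAGEA12. The median of 35116 windows in the RefSeq table is 11, with quartiles of 3 and 23, so no member reaches the upper quartile. Motifs with the letters that ETS factors read were searched on both strands in the 250 bases. CCGGAA was found at 2 places in the windows of SAGE1 and CT45A10 (the first, which overlaps that of SAGE1) and at 1 place in those of MAGEA3 and MAGEA6, and 14.5% of all windows hold it. CCGGAT was found at 3 places in the MAGEC1 window and at 1 in the windows of MAGEC2, SAGE1, CT45A10 (the first) and MAGEA12 (both), and 5.85% of all windows hold it. These matches are descriptions of the letters, not binding sites.

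Copies set a limit on what the counts can say. In the transcripts of GENCODE v29, 87.1% of all 100-base stretches of CT45A3 occur in another gene too, 73.7% of those of CT45A1 and 63.4% of those of CT45A10. For MAGEA3 the share was 34.9% and for MAGEA6 33.0%, each with the other as the gene that shares most. For MAGEA12 it was 3.54%, and for SAGE1, MAGEC1 and MAGEC2 it was 0. A read from a shared stretch cannot be given to 1 gene, and how such reads were counted was not stated in the labels or notes. Nor was the read length. At 50 bases the shares rose to 91.3% for CT45A3 and 56.5% for MAGEA3, and from 0 to 0.779% for SAGE1. SAGE1, MAGEC1 and MAGEC2 are thus the members whose counts can be read as those of 1 gene, and single CT45A or MAGEA3 and MAGEA6 values are uncertain between copies.

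**Figure D1:**
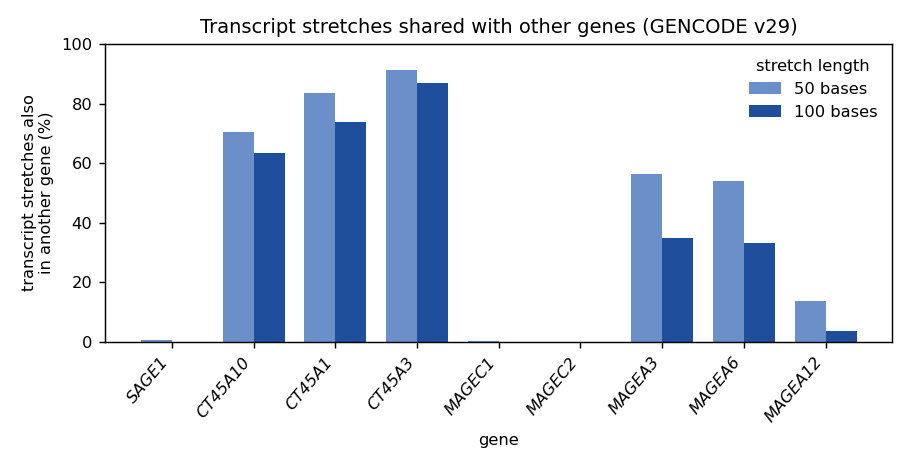
Share of each member's transcript stretches of 50 or 100 bases that also occur in transcripts of another gene (vertical axis, percent), by gene. The 3 CT45A genes reach 63.4% or more at 100 bases, while SAGE1, MAGEC1 and MAGEC2 are at 0.

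Library totals ran from 43190276 to 57282373 counts. Between 67.5% and 70.5% of counts from 1 to 20 were even numbers, as when both mates of a read pair are counted, so counting intervals below are too narrow; they cover counting error only. Levels are CPM, read counts scaled to a common library total with TMM factors. The luminal prostate marker KLK3 ran from 1862 to 3094 CPM over the 5 libraries, and the luminal keratin gene KRT8 from 304 to 570 CPM. All 10 luminal markers listed were at 1 CPM or more in each library. The comparisons are C4K13A against parental, C5K13A against parental and C5K13A against C4K13A. In edgeR 0 luminal markers were called in each, where 0.699%, 0.0484% and 0.066% of all genes were called. At an unadjusted p under 0.05 there were 2, 2 and 1, beside 12.2%, 6.45% and 6.42% of all genes. DESeq2 called 3.71%, 1.38% and 1.02% of all genes with an adjusted p, and 1 luminal marker in each comparison. These were KRT8 in C4K13A against parental (a log2 fold change of 0.74, adjusted p = 0.0228) and KLK2 in both comparisons of C5K13A. KLK2, named after its values were seen, had 510 and 298 CPM in parental cells, 439 and 308 in C4K13A and 115 in C5K13A (DESeq2 adjusted p = 6.14e-05 against parental and 2.96e-04 against C4K13A). TMPRSS2, likewise, had 711 and 319 CPM in parental cells, 358 and 139 in C4K13A and 107 in C5K13A (log2 fold change in C5K13A -2.27, edgeR adjusted p = 0.528). The part of these markers in the levels of the members was not tested. A gene is called on here at 1 CPM or more. By that measure 5 and 6 members were on in parental cells, by library, against 4 and 4 for C4K13A and 5 for C5K13A. On and off states that differed between the clones were seen for MAGEC1 alone among the 9. SAGE1 and CT45A10 separated parental cells from both clones. In all, 8 of the 9 passed the filter on low counts.

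**Figure D2:**
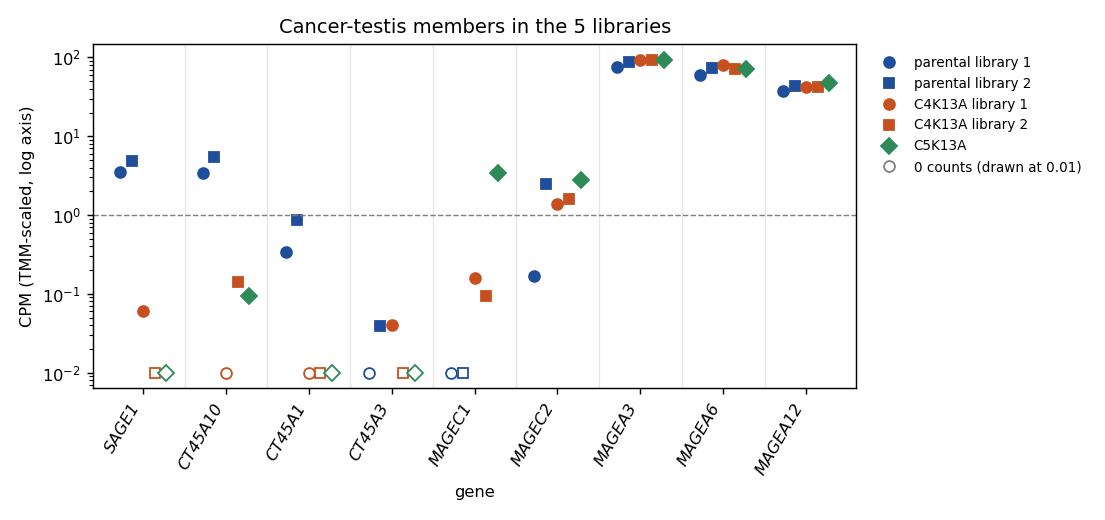
CPM on a log axis for the 9 members (horizontal axis), with 1 point per library and open symbols at 0.01 for 0 counts; the dashed line is 1 CPM. SAGE1 and CT45A10 are above the line in the parental libraries alone, MAGEC1 in C5K13A alone, and MAGEA3, MAGEA6 and MAGEA12 far above it in all 5.

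SAGE1 and its divergent neighbour CT45A10 were on in parental cells and off in both clones. SAGE1, whose protein binds the INTS3 subunit shared by the Integrator and SOSS complexes, lies at X:135889205-135913061 (ENSG00000181433, GRCh38 in GENCODE v29). Parental libraries held 210 and 244 counts of it, those of C4K13A 3 and 0, and that of C5K13A 0, or 3.53 and 4.81 CPM against 0.0600, 0 and 0 CPM. The parental mean was 4.17 ± 0.903 CPM (SD, n = 2). Every clone library lay below both parental libraries, as for 14.7% of all genes tested. The members were chosen on such a contrast, so nothing is read from this. In RNA from many cells, fewer cells with the transcript and less of it per cell cannot be told apart. On the 3 counts of C4K13A, SAGE1 was 128-fold lower there, with a 95% counting interval of 43.4 to 622, and at least 58.1-fold lower in C5K13A against a floor of 3 counts in that library. CT45A10 (X:135881063-135889086, ENSG00000269586) had 206 and 278 counts in parental, 0 and 6 in C4K13A and 4 in C5K13A. Its parental levels were 3.46 and 5.48 CPM, beside those of SAGE1, and again above every clone library. It was 68.1-fold lower in C4K13A (interval 31.1 to 186) and 46.4-fold lower in C5K13A (interval 18.0 to 171). Per kilobase of exon CT45A10 was the higher of the pair in parental cells, at 3.42 and 5.41 RPKM against 1.20 and 1.63 RPKM.

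CT45A1 followed at a lower level. CT45A genes encode small nuclear proteins whose peptides are presented to T cells in some tumours. CT45A1 (X:135713453-135723539, ENSG00000268940) had 20 and 44 counts in parental cells, 0.336 and 0.867 CPM, and 0 in all 3 clone libraries. It was at least 18.0-fold lower in C4K13A and at least 8.18-fold lower in C5K13A, against 3 counts over each clone's libraries. CT45A3 (X:135759846-135768191, ENSG00000269096) had 0 and 2 counts in parental, 2 and 0 in C4K13A and 0 in C5K13A. It never exceeded 2 counts in a library, did not pass the filter on low counts, and shows no on or off state. Summed over the 9 CT45A genes in the table, which removes the choice between copies, the counts were 246 and 370 in parental, 2 and 8 in C4K13A and 4 in C5K13A. Of these 9 genes, 5 had 0 counts throughout, which need not mean silence where copies share reads. CT45A5, a copy outside the members, matched CT45A1 with 20 and 46 counts in parental and 0, 2 and 0 in the clones.

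Of 14236 genes at 1 CPM or more in both parental libraries, 21 (0.148%) were under 0.25 CPM in all 3 clone libraries, a limit chosen with the values in view. The rule for the members used that contrast, so nothing is read from SAGE1 and CT45A10 being among them. Of the other 19, 8 lie on chromosome Y and 1 on chromosome X. The X-linked one was CTAG2, also a cancer-testis gene, which encodes the LAGE-1 antigen. By level over the 5 libraries, CT45A10 lay at a distance of 0.291 from SAGE1. With the members left out, the protein-coding genes nearest to SAGE1 were SGCE on chromosome 7 (distance 0.287 on the log2(CPM + 1) scale), EIF1AY on Y (0.375), PCDH7 on 4 (0.476) and MYT1 on 20 (0.486). SGCE had 3.50 and 3.82 CPM in parental cells, 0.0799 and 0.0697 CPM in C4K13A and 0 in C5K13A.

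Genes around SAGE1 and the CT45A cluster mostly had few or 0 counts or gave no call. Within 500 kb of a member's start lie 36 other annotated genes in the table, of which 17 had 0 counts and 9 passed the filter on low counts. The 17 include CT45A copies, where 0 counts need not mean silence, as the handling of shared reads was not stated. The 9 include CT45A5, which was lower in the clones than in parental cells. With edgeR's quasi-likelihood test and Benjamini-Hochberg adjustment over 22743 genes, 0 of these 9 were called at an adjusted p under 0.05 in C4K13A, in C5K13A or between the clones. At an unadjusted p under 0.05 there were 2, 1 and 0, and DESeq2 called 0 in each. Over all genes the share called was 0.699% for C4K13A against parental, 0.0484% for C5K13A against parental and 0.066% between the clones. At an unadjusted p under 0.05 the shares over all genes were 12.2%, 6.45% and 6.42%, and by DESeq2 3.71%, 1.38% and 1.02% of genes with an adjusted p. Split by direction, 0.0967% were higher and 0.602% lower in C4K13A than in parental cells, 0.0176% and 0.0308% in C5K13A, and 0.0396% and 0.0264% in C5K13A against C4K13A. MMGT1, a subunit gene of the ER membrane complex chosen after its values were seen, had 35.9 and 41.3 CPM in parental cells and 36.1, 40.0 and 41.2 CPM in the clones. These ranges overlap. Of 545 protein-coding X genes tested, 0.734% were called in C4K13A against parental, beside 0.699% of all genes. In C5K13A against parental and between the clones it was 0.183%, just 1 gene each, beside 0.0484% and 0.066% of all genes. Members are X-linked, were chosen on such contrasts and may be among the genes called, so nothing is read from these shares.

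MAGEC1 had the reverse pattern: it was silent in parental cells and on in C5K13A. MAGEC1 (X:141903894-141909388, ENSG00000155495) encodes the large antigen CT7. Both parental libraries had 0 counts, which allows a group level of up to 0.0272 CPM (3 counts over both libraries), then 8 and 4 counts in C4K13A (0.160 and 0.0930 CPM) and 143 in C5K13A (3.38 CPM). The single C5K13A library stood above all others. The ratio of C5K13A to C4K13A was 26.2, with a counting interval of 14.6 to 51.9, and C5K13A was at least 124-fold higher than parental against that limit. C4K13A was at least 4.74-fold higher than parental, on 12 counts and against the same limit. Over all genes, 3 of 14505 at 1 CPM or more in C5K13A (0.0207%) were under 0.25 CPM in the other 4 libraries. MAGEC1 was 1 of them by the choice of members. With 1 library of the clone there is no replicate of this state.

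MAGEC2, which starts 301396 bases from MAGEC1 and encodes the antigen CT10, did not follow it. MAGEC2 (X:142202345-142205290, ENSG00000046774) had 10 and 124 counts in the 2 parental libraries, against 70 and 69 for C4K13A and 117 for C5K13A. Per kilobase of exon that was 0.0844 and 1.23 RPKM, then 0.703 and 0.806, then 1.39. The parental libraries lie on both sides of C4K13A, so no state separates the groups. In parental cells the mean was 1.31 ± 1.61 CPM (SD, n = 2). The parental libraries were 14.5-fold apart. Of 14906 genes at a parental mean of 1 CPM or more, 42 (0.282%) were at least 10-fold apart in this way, and the median gene was 1.23-fold apart. SAGE1 and CT45A10 were 1.36-fold and 1.58-fold apart between the parental libraries. Of genes at a C4K13A mean of 1 CPM or more, 0.11% were at least 10-fold apart between the C4K13A libraries. Mitochondrial ribosomal RNA also differed between these libraries, at 28.0 and 1764 CPM in parental cells, 63.3 and 363 in C4K13A and 671 in C5K13A; its part in the MAGEC2 values was not tested. Around MAGEC1 and MAGEC2, 0 of 11 neighbours passed the filter on low counts, so their surroundings could not be tested.

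MAGEA3, MAGEA6 and MAGEA12 were on everywhere, at levels that moved little. All 3 are in 1 block: MAGEA3 at X:152698752-152702347 (ENSG00000221867), MAGEA12 at X:152733779-152737669 (ENSG00000213401) and MAGEA6 at X:152766136-152769747 (ENSG00000197172). MAGEA3 had 75.6 and 86.8 CPM in parental cells, 93.8 and 91.6 in C4K13A and 91.5 in C5K13A. MAGEA6 had 59.5 and 72.5, 79.7 and 71.7, and 70.7 CPM, and MAGEA12 37.2 and 42.8, 41.8 and 42.2, and 47.1 CPM. Parental values overlap those of the clones for MAGEA6 and MAGEA12. For MAGEA3 the clones lie just above, by 1.15-fold in C4K13A and 1.13-fold in C5K13A, close to the step between the parental libraries.

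Per kilobase of exon the order was the same in every library, with MAGEA3 (42.3 to 52.5 RPKM) above MAGEA6 (31.9 to 42.8 RPKM) and MAGEA12 (19.2 to 24.3 RPKM). The first pair overlaps across libraries, and both values depend on reads that could come from either copy. The count of MAGEA3 per MAGEA6 count ran from 1.18 to 1.30. Summed over both copies the level was 135 and 159 CPM in parental cells, 173 and 163 in C4K13A and 162 in C5K13A. The annotated pseudogene CSAG4 (X:152733827-152740985) lies on the same strand as MAGEA12, begins inside it and runs past its end, so reads there could be counted for either. With the members left out, the genes nearest to MAGEA3 in level over the 5 libraries were TIAL1 (distance 0.0890), BMS1 (0.0930), PARVB (0.116) and BRF1 (0.131), none of them on X. Within 500 kb of these 3 genes 17 others were tested. EdgeR called 0 of them in each comparison, where it called 0.699%, 0.0484% and 0.066% of all genes. At an unadjusted p under 0.05 there were 2 in each, beside 12.2%, 6.45% and 6.42% of all genes. DESeq2 called 0, beside 3.71%, 1.38% and 1.02% of all genes with an adjusted p.

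The order of members by RPKM in parental cells thus ran from MAGEA3, MAGEA6 and MAGEA12 to CT45A10 and then SAGE1. MAGEC2 and CT45A1 came lower and overlapped over the parental libraries, at 0.0844 and 1.23 RPKM and at 0.254 and 0.654 RPKM. In C5K13A MAGEC2 (1.39 RPKM) and MAGEC1 (0.792 RPKM) took the places after the MAGEA genes, and SAGE1 and CT45A1 had 0 counts.

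Other X-linked cancer-testis genes were read from a list of 121 names, of which 111 matched. Among these 46 had 0 counts in all libraries, all CT47 and most GAGE12 genes among them, and 32 passed the filter on low counts. The handling of reads shared between copies was not stated, so 0 counts in such families need not mean silence. The number at 1 CPM or more was 15 and 17 in parental, 15 and 12 in C4K13A and 14 in C5K13A. In edgeR 0 of 32 were called in any of the 3 comparisons, with 11, 9 and 3 at an unadjusted p under 0.05; DESeq2 called 4 of 27, 1 of 20 and 0 of 23 with an adjusted p. Over all genes 12.2%, 6.45% and 6.42% had an unadjusted p under 0.05, and DESeq2 called 3.71%, 1.38% and 1.02%. The median fold change was -0.14 in C4K13A against parental, -0.25 in C5K13A against parental and -0.18 between the clones on the log2 scale, where all genes had -0.01, -0.03 and -0.03. The comparisons share their control libraries. All 3 clone libraries lay below both parental libraries for 8 of the 32 and above them for 4, where 14.7% and 13.2% of all genes did so. VCX, VCX2, VCX3A, VCX3B and CT45A5 are among these 8. They are also among the 11 and the 9 with an unadjusted p under 0.05 against parental. Such copies may share reads, so these numbers do not count independent genes.

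The MAGEA relatives were on at quite different levels. MAGEA1 was the most abundant, at 60.1 and 87.0 CPM in parental cells, 111 and 99.5 in C4K13A and 92.2 in C5K13A (adjusted p = 0.396 for C4K13A in edgeR). MAGEA2 and MAGEA2B, near-identical copies, stayed between 4.34 and 6.10 CPM. MAGEA10 had 0.992 and 1.62 CPM in parental cells, 5.50 and 4.77 in C4K13A and 2.34 in C5K13A. Its fold change in C4K13A of 1.98 ± 0.37 (log2, standard error) missed the threshold in edgeR (adjusted p = 0.0638) and passed it in DESeq2 (4.48e-04) and without parental library 2 (2.37, adjusted p = 0.0114). MAGEA4 had 0 and 0.118 CPM in parental cells, 1.02 and 0.744 in C4K13A and 0.0473 in C5K13A. In C4K13A its fold change was 3.91 (adjusted p = 0.190 in edgeR), and DESeq2 called it (0.0454).

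Among genes outside the MAGE and CT45A families, chosen after their values were seen, CTAG2 and the VCX genes were lower in all clone libraries than in parental ones. CTAG2 had 1.33 and 4.49 CPM in parental cells, 0.200 and 0.0930 in C4K13A and 0.0946 in C5K13A. Its fold change in C4K13A was -4.27 (edgeR adjusted p = 0.0532, DESeq2 1.16e-05, edgeR without parental library 1 0.00386), and in C5K13A -4.90 (edgeR adjusted p = 0.299, DESeq2 0.00164). The 4 VCX genes, copies of a germ cell family on the short arm of X, were lower in each clone library than in either parental library. VCX3A had 2.89 and 3.31 CPM in parental cells and 0.899, 0.325 and 0.804 CPM in the clones (C4K13A -2.32, edgeR adjusted p = 0.106, DESeq2 0.00526). PAGE1 stayed high in all libraries, at 121 and 173 CPM in parental cells and 149 to 171 CPM in the clones.

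**Figure D3:**
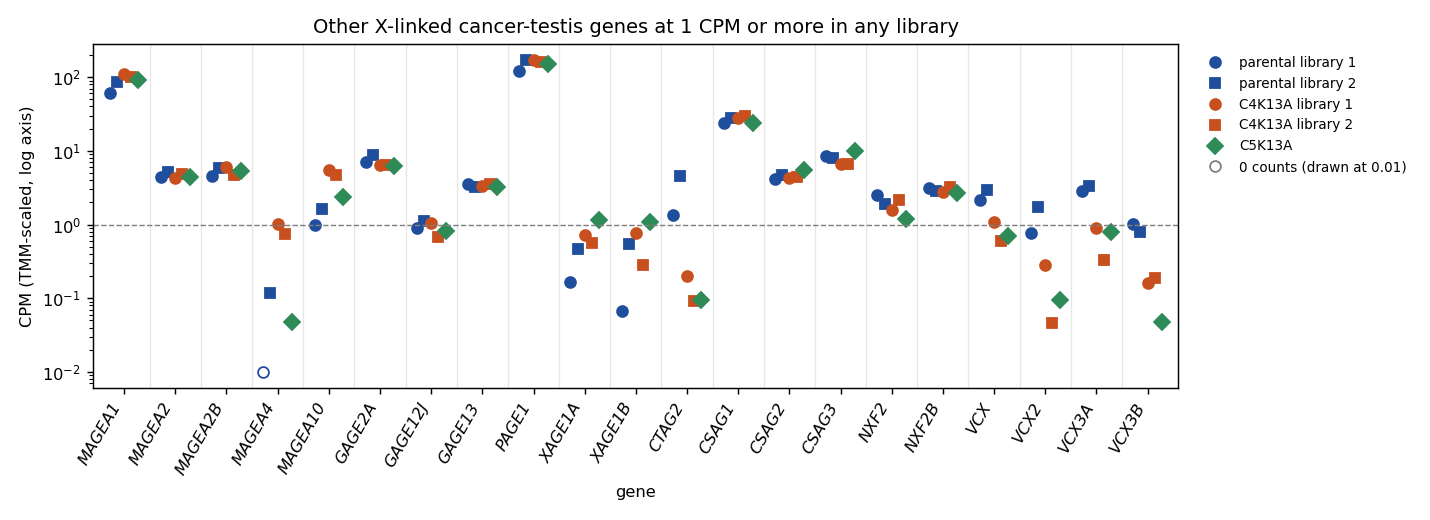
CPM on a log axis of the X-linked cancer-testis genes outside the members that reached 1 CPM in a library (horizontal axis), 1 point per library, open symbols at 0.01 for 0 counts; the dashed line is 1 CPM. CTAG2 and the VCX genes lie lower in the clone libraries, MAGEA10 higher, and most others overlap.

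Autosomal cancer-testis genes gave no call. Of 59 autosomal genes listed, 28 were tested and edgeR called 0 in each comparison, where it called 0.699%, 0.0484% and 0.066% of all genes. So few calls over all genes leave little to read from 0 of 28. At an unadjusted p under 0.05 there were 1, 3 and 2, beside 12.2%, 6.45% and 6.42% of all genes. DESeq2 called 0, beside 3.71%, 1.38% and 1.02% of all genes with an adjusted p. The smallest adjusted p in C4K13A were those of SPAG17, a sperm flagellum protein gene, with a fold change of 1.38 (0.371), and OIP5, a centromere factor gene, with 0.51 (0.466). ACRBP and TEX15, genes of sperm acrosome and meiosis, had 0 counts in C5K13A. ACRBP had 0.487 and 0.512 CPM in parental cells and 0.200 and 0.651 CPM in C4K13A (adjusted p = 0.467 for C5K13A against parental and 0.522 against C4K13A). TEX15 had 0.101 and 1.18 CPM in parental cells and 0.640 and 0.558 CPM in C4K13A (adjusted p = 0.658 and 0.680). Of 14 germ cell markers, 6 had 0 counts everywhere: PRM1, PRM2, TNP1, TNP2, STRA8 and ZPBP. By library, 3 or 4 of the 14 were at 1 CPM or more. NANOS3 ran from 3.55 to 5.18 CPM and SYCP3 from 1.56 to 3.74 CPM. SOHLH2 ran from 0.284 to 3.40 CPM and TUBA3C from 0.721 to 1.77 CPM. The summed level of all 14 was 9.75 and 10.8 CPM in parental cells, 12.8 and 9.25 in C4K13A and 9.17 in C5K13A. Markers of leukocytes summed to 0.374 CPM or less, of endothelium to 2.65 to 5.71 CPM, of fibroblasts to 6.81 to 9.83 CPM and of Sertoli and Leydig cells to 9.03 to 20.5 CPM. These sums rest on few genes. VWF, at 2.63 to 5.58 CPM, made up most of the endothelial sum. COL1A1 and PDGFRB made up most of the fibroblast sum, and AMH and CYP11A1 most of the Sertoli and Leydig sum.

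Most of 41 listed genes that act on DNA methylation, heterochromatin or polycomb repression were expressed. Of these, 39 reached 1 CPM in every library, and DNMT3L and CTCFL reached it in none. The list mixes opposing roles: TET1, TET2 and TET3 act against DNA methylation, and CTCFL is itself a listed cancer-testis gene. Of the 41, 39 were tested, and edgeR called 0 in each comparison. At an unadjusted p under 0.05 there were 8, 2 and 3, and DESeq2 called 2, 0 and 0. Over all genes 12.2%, 6.45% and 6.42% had such a p, and DESeq2 called 3.71%, 1.38% and 1.02%. The median fold change was 0.25 in C4K13A, 0.10 in C5K13A and -0.14 between the clones, where all genes had -0.01, -0.03 and -0.03. All clone libraries lay above both parental libraries for 15 of the 39 and below them for 3. Over all genes tested 13.2% and 14.7% did so. What lies behind this difference was not tested. DNMT1, the maintenance DNA methyltransferase, had 157 and 221 CPM in parental cells, 287 and 231 in C4K13A and 226 in C5K13A (adjusted p = 0.478 and 0.889 against parental). UHRF1, which brings DNMT1 to replicated DNA, had 44.2 and 63.7 CPM in parental cells and 84.8 to 88.3 CPM in the clones (0.71 in C5K13A, adjusted p = 0.685; that of C4K13A also missed the threshold). HELLS, a chromatin remodeller needed for DNA methylation, had 19.8 and 24.6 CPM in parental cells, 41.2 and 38.9 in C4K13A and 33.6 in C5K13A. Its fold changes were 0.85 ± 0.19 (adjusted p = 0.111) and 0.60 ± 0.23 (adjusted p = 0.723).

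TASOR (FAM208A in GENCODE v29), a scaffold of the HUSH silencing complex, had 42.2 and 42.9 CPM in parental cells, 24.0 and 22.6 in C4K13A and 42.1 in C5K13A. The difference of -0.87 ± 0.17 in C4K13A missed the threshold in edgeR (adjusted p = 0.0811), as did that of 0.855 ± 0.206 between the clones (adjusted p = 0.382). MORC2, an ATPase that HUSH recruits, had 71.8 and 57.9 CPM in parental cells, 90.6 and 92.3 in C4K13A and 54.9 in C5K13A (C5K13A against C4K13A -0.73, adjusted p = 0.648).

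Of 8 MAGE partners tested, edgeR called 0 in each comparison, where it called 0.699%, 0.0484% and 0.066% of all genes. At an unadjusted p under 0.05 there was 1 in each, beside 12.2%, 6.45% and 6.42% of all genes. DESeq2 called 0, beside 3.71%, 1.38% and 1.02% of all genes with an adjusted p. TRIM28 had 683 and 748 CPM in parental cells, 763 and 753 in C4K13A and 705 in C5K13A (adjusted p = 0.897, 0.990 and 0.999 in the 3 comparisons). PRKAA1, the AMPK subunit that the MAGEA3 and TRIM28 ligase degrades, had 80.4 and 79.1 CPM, 98.8 and 90.4 CPM, and 89.4 CPM (adjusted p = 0.625, 0.903 and 0.999). HOXB13 itself had 337 and 449 CPM in parental cells and 345 to 353 CPM in the clones (adjusted p = 0.769 and 0.921 against parental); gene counts cannot show the substitution.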

How the data were processed

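Libraries of total RNA from 5 cell line samples were made with RiboErase and run on an Illumina HiSeq, as the labels' protocols say. Tools listed in the submitters' processing notes are featureCounts 1.4.6-p5 (Subread), STAR 2.5 and bcl2fastq. Build, annotation, strand setting and the treatment of multiply aligned reads: not given in the sources used here. Deposited by the authors were raw counts per gene, for 58812 Ensembl IDs, of which 55297 matched GENCODE v29 (GRCh38), used for names, coordinates and exon lengths.

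These counts went into edgeR 4.0.16 under R 4.3.3 (glmQLFit and glmQLFTest after filterByExpr and TMM) in 1 fit of 3 groups over 22743 genes, with the lone C5K13A library assumed to vary like the others. Members and lists were chosen with earlier results of these data known. Named by rule were the members, CT45A, MAGEA and MAGEC relatives at 1 CPM or more in a library, called genes of each list and of the neighbours within 500 kb, the 2 smallest adjusted p of the autosomal and silencing lists where none was called, TRIM28, PRKAA1, DNMT1 and HOXB13, and the 4 nearest patterns to SAGE1 and MAGEA3; other names were chosen after their values were seen. The fit was tested on simulated data with changes of known size, set only in genes at a mean above 1 CPM. It recovered 22.9% of 2-fold and 93.1% of 4-fold changes for C4K13A against parental. For each comparison of C5K13A it recovered 12.0% and 75.9%. Of the simulated calls, 7.09% were false for C4K13A against parental, 10.8% for C5K13A against parental and 9.92% between the clones. A lack of edgeR calls therefore says little about changes near 2-fold. Standard errors are the log2 fold change over the root of the F statistic. Folds of members come from pooled counts. Alternatives were RLE factors, no filter, a filter at 5 CPM, DESeq2 1.42.0, a replicate block, each library left out, and other on thresholds. Some marker and neighbour genes are not reported here.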

Additional observations from a re-analysis of the deposited data

How the results depend on the processing

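Counts of all called genes moved with the settings. Against 159 called in C4K13A against parental, 11 in C5K13A against parental and 15 between the clones, there were 1346, 578 and 423 without a filter, 32, 0 and 0 with the filter at 5 CPM, and 745, 235 and 182 with DESeq2. With each library left out they ran from 130 to 1667 in C4K13A, 41 to 668 in C5K13A and 51 to 155 between the clones. Without parental library 1 the 3 counts were 298, 41 and 155, without parental library 2 1667, 668 and 138, without C4K13A library 1 303, 163 and 51, and without C4K13A library 2 142, 157 and 75; the cause was not tested. For the other X-linked cancer-testis genes, the number tested changed with the filter and with the libraries kept. Of the 32 in the main fit, 0 were called in each comparison. Without a filter 65 were tested, and the numbers called were 9, 4 and 1. With DESeq2, on the same 32, the numbers called were 4 and 1 against parental. With each library left out they ran from 0 to 3 in C4K13A, 0 to 1 in C5K13A and stayed at 0 between the clones.

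The fit with the replicate number as a block, possible for C4K13A and parental alone, called 885 genes and 5 of the list (MAGEA4, MAGEA10, CTAG2, CT45A5 and VCX3A). Same-numbered deviations correlated across genes with r = 0.154; the labels do not say that a number marks a shared day, so the samples share only a number. The numbers of members on in each library stayed within 1 of the reported ones at 0.5 and 2 CPM. Without C4K13A library 1 the uncalled difference of CT45A10 between the clones went from 0.61 to -0.51 on the log2 scale with 0.5 counts added, and without C4K13A library 2 to 3.41. Summing copies left the sign of CT45A10 and of MAGEA3 as it was. Depth limits CT45A1, CT45A3 and MAGEC1 in C4K13A, each resting on few reads.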

Other observations

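Some genes outside the comparisons also differed between libraries of 1 kind or had 1 library apart. BRDT, the testis member of the BET bromodomain family, had 0.269 and 3.72 CPM in parental cells, 0.660 and 3.65 in C4K13A and 12.9 in C5K13A, so that the parental libraries were 13.8-fold apart. SOHLH2, a germ cell transcription factor gene, had 1.45 and 2.13 CPM in parental cells, 3.40 and 2.00 in C4K13A and 0.284 in C5K13A (C5K13A against C4K13A -3.24, edgeR adjusted p = 0.239, DESeq2 0.00316; against parental -2.64, edgeR adjusted p = 0.380, DESeq2 0.0362). The 2 genes that shared the MAGEC1 pattern, on in C5K13A alone, were SLC17A2 on chromosome 6, a phosphate transporter family gene (7.26 CPM in C5K13A and at most 0.0504 CPM elsewhere), and SPAAR on chromosome 9, which encodes a small lysosomal polypeptide (11.5 CPM and at most 0.0168 CPM).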
